A study of Drosophila melanogaster with 6 samples.

Results

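The segment polarity genes set up the repeated boundaries within each segment of the fruit fly Drosophila melanogaster. In the embryonic ectoderm, cells with the homeobox factors Engrailed and Invected secrete Hedgehog, and neighbouring cells answer with the Wnt ligand Wingless, so that each side maintains the other. Hedgehog binds Patched, which otherwise holds back Smoothened, and the signal ends on the zinc finger factor Cubitus interruptus, while Wingless signals through Armadillo, the fly beta-catenin. The stripes of these genes are laid down by the pair-rule factors around cellularization, so the embryos measured here cover the time before or just at their onset.

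Probe sets were chosen by gene symbol alone, from a list of 10 genes, namely en, inv, wg, hh, ptc, gsb, gsb-n, smo, arm and ci. Of these, 8 genes were each matched by 1 probe set, out of 11981 genes named by a probe set on the array. No probe set carried the symbol wg or arm in the annotation used, and both are not analysed here. The data came from 6 Affymetrix Drosophila Genome 2 arrays, 1 per RNA sample of pooled embryos aged 1 to 2 h. The mutant group was 3 samples of embryos from mothers with a zld mutant germ line, which the labels call zld-GCL, zld-glc or M- zld, with no allele named; such eggs lack normal maternal function of Zelda, a zinc finger activator of the first zygotic genes. The control group was 3 samples of yw embryos, labelled wild type, and no treatment was given to either group. The submitters staged part of the collected embryos and found 90% in nuclear cycles 8 to 13, which precede gastrulation. The comparison asked which transcripts differ between embryos with and without maternal zld.

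The zld transcript itself had signals of 263, 196 and 215 on the mutant arrays and 1023, 1062 and 967 on the yw arrays (log2 difference -2.11, SE 0.114, adjusted p = 1.92e-04, limma). Signals of 24 Bacillus control probe sets, which have no target in fly RNA, reached 19.0 at their 95th percentile, and signals up to that level are called background here. All 5 measured markers, of 7 listed, of maternally loaded RNA (bcd, osk, smg, gcl and png) were above it on all 6 arrays. The yw arrays of replicates 1 and 2 stood apart in the summed signals of muscle and matrix markers. The summed signal of 7 measured muscle genes, of 11 listed, was 79.4 to 90.1 on the mutant arrays and 293, 510 and 80.4 on yw replicates 1, 2 and 3. That of 8 matrix, haemocyte and fat body genes was 182 to 225 on the mutant arrays and 372, 720 and 212 on the yw arrays. None of these 15 genes was called, against 1.64% of all probe sets. In limma, 4 of the 7 muscle and 5 of the 8 matrix genes had an unadjusted p under 0.05. Over all probe sets the share at that threshold was 15.4%. On the mutant arrays the muscle genes ranged from Mlc2, at 0.80 to 0.90, to Act87E, at 24.1 to 32.2 and so above background. Mlc1 was at 17.6 to 23.9 there. Not every matrix gene followed its sum, with LanB1 and LanB2 at 39.4 and 45.0 on yw replicate 1, below all mutant arrays. Pxn, within background, was highest on yw replicate 3, at 15.9. The nervous system markers did not follow this order, with sums of 40.3, 83.8 and 65.3 on yw replicates 1, 2 and 3. Markers of ovary and adult female (9 genes, summed signal 69.1 to 114 in mutant and 77.2 to 136 in yw samples) and of the nervous system (4 of 5 listed, 46.7 to 51.7 and 40.3 to 83.8) were low, and no gene of these lists was above background on every array.

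Most genes of the circuit were at or near background at this age, and none of its measured genes passed the test between mutant and yw embryos. Only ptc, smo and ci were above background on all 6 arrays. The largest difference was that of ci, whose signal was higher on every mutant array than on any yw array. Between the group means it was 2.49-fold on the log2(signal + 16) scale. The signal of the lowest mutant array was 1.32-fold that of the highest yw array. By contrast ptc and smo were lower on every mutant array than on any yw array, with group means lower by 1.25-fold and 1.07-fold on that scale. In limma, fitted over 18769 probe sets with Benjamini-Hochberg adjustment, 0 of the 8 genes were called lower and 0 higher at an adjusted p under 0.05. Over all probe sets the share called was 1.64% (0.778% lower and 0.863% higher), so that a count of 0 among 8 lies near the background. At an unadjusted p under 0.05, limma passed 1 of the 8, ci, against 15.4% of all probe sets (6.69% as higher). The groups did not overlap for 3 of the 8, against 21.8% of all probe sets. The methods' t-test, which the series text names, passed 0 after adjustment and 1 before it, ptc, against 0.0107% and 13.3% of all probe sets. The median log2 difference of the 8 genes was -0.04, beside -0.05 over all probe sets. Whole embryos were measured, so fewer expressing nuclei and less RNA per nucleus cannot be told apart.

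**Figure D1:**
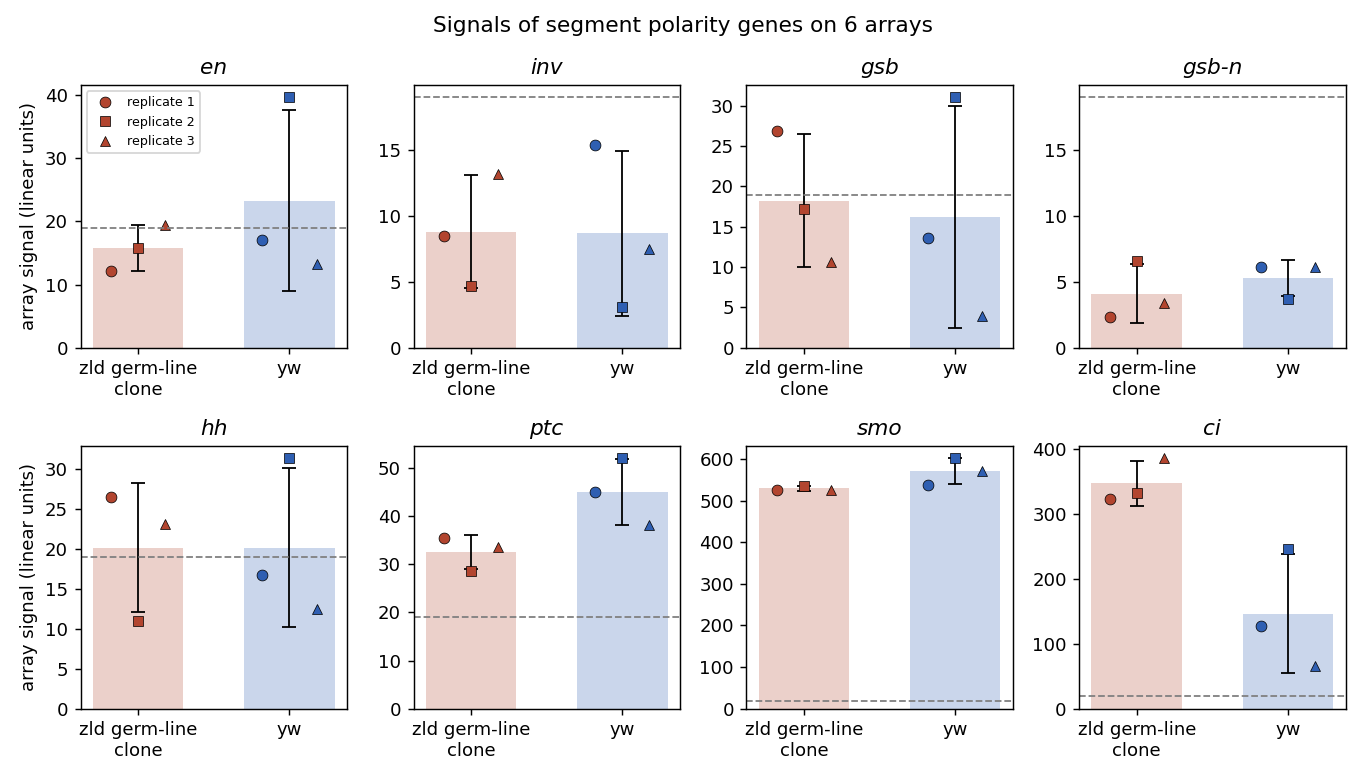
Array signal, on a linear scale starting at 0, of the 8 measured segment polarity genes in zld germ-line clone and yw embryos. Points are single arrays with a symbol for each replicate number, bars are means with SD (3 arrays a group), and the dashed line is the background level of 19.0; ci is separated between the groups, from 324 to 386 against 66.3 to 246, while inv and gsb-n lie below the line throughout.

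Cubitus interruptus (ci) is the transcription factor at the end of the Hedgehog pathway, an activator when the signal is on and a repressor in its cleaved form when it is off. Its signal was 324, 332 and 386 on mutant replicates 1, 2 and 3. On yw replicates 1, 2 and 3 it was 128, 246 and 66.3. The mutant arrays thus lay close together and above the yw arrays, which were spread over a 3.71-fold range, and even the highest yw array was below the lowest mutant array. The means were 347 ± 34.0 and 147 ± 91.4 (SD, n = 3 arrays each), and the log2 difference was 1.31 (SE 0.354, 95% interval 0.50 to 2.13). This did not pass (adjusted p = 0.128, limma). Of the 18769 probe sets, 53 had a larger positive difference and 852 had a smaller unadjusted p. All mutant arrays were above all yw arrays for 8.11% of all probe sets.

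The yw array with the highest ci signal, replicate 2, was also the one with the highest muscle and matrix sums. The array with the lowest ci signal, replicate 3, had the lowest sums of the yw arrays. The mutant arrays had more ci than any of them together with muscle and matrix sums as low as those of yw replicate 3. Without yw replicate 2 the log2 difference of ci was 1.74 and passed (adjusted p = 0.0220, limma). Without yw replicates 1 and 2 it was 2.14 (adjusted p = 0.00912), where the remaining yw array was assumed to vary like the mutant ones. Without yw replicate 3 it was 0.90 (adjusted p = 0.141). Its adjusted p lay between 0.00912 and 0.384 in the alternatives tried. The gene has been listed among the maternally loaded members of the circuit, but a single age class cannot separate maternal from newly made ci RNA.

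**Figure D2:**
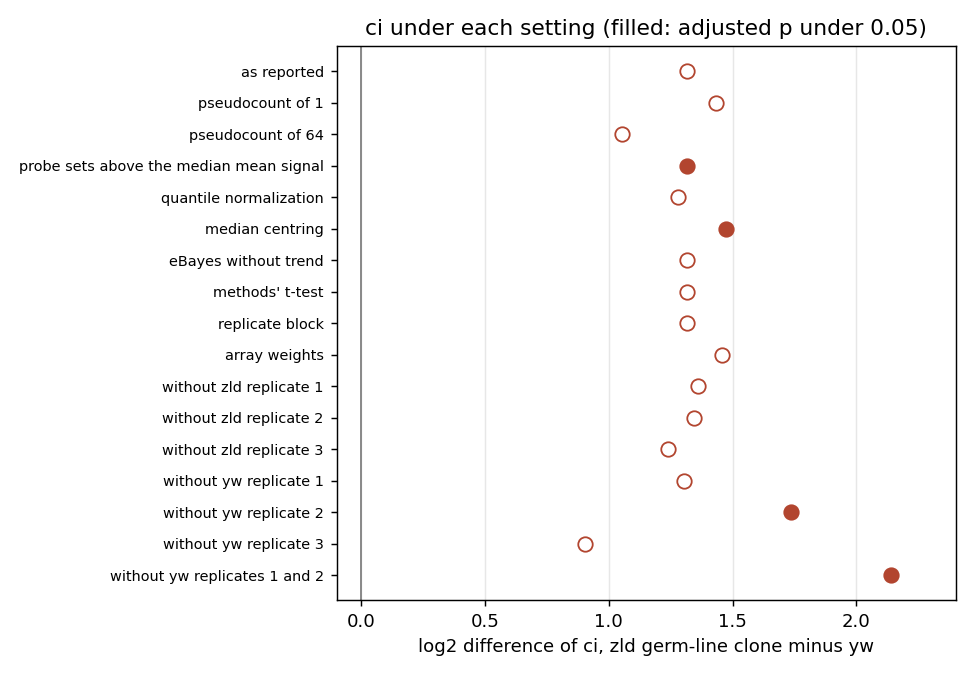
Log2 difference of ci (mutant minus yw) under the reported setting and 16 alternatives. Filled points have an adjusted p under 0.05; all points lie above 0, from 0.90 without yw replicate 3 to 2.14 without yw replicates 1 and 2, and 4 of the alternatives passed.

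Among the receptors, smoothened (smo) encodes the membrane protein that passes the Hedgehog signal into the cell. It was far above background, with signals of 527, 536 and 526 on the mutant arrays and 539, 602 and 572 on the yw arrays. All mutant arrays were below all yw arrays, but the gap between the nearest of them was small beside the spread of the yw group. The log2 difference was -0.10 (SE 0.0800, adjusted p = 0.577, limma), and its 95% interval of -0.29 to 0.08 leaves out any change of 2-fold in either direction. With median centring, which raised the median log2 difference of all probe sets by 0.157, the value for smo was 0.05, so its direction is not settled. Patched (ptc), the Hedgehog receptor and itself a target of the pathway, had signals of 35.6, 28.6 and 33.6 on the mutant arrays. On the yw arrays it had 45.0, 52.1 and 38.3. The groups did not overlap, as for 13.6% of all probe sets in that direction, and all values were above background, though not far. The log2 difference of ptc was -0.33 (SE 0.184, 95% interval -0.75 to 0.10, adjusted p = 0.440, limma), and without yw replicates 1 and 2 it was -0.16.

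Hedgehog (hh), the secreted ligand, was at the edge of background in both groups. Its signals were 26.5, 11 and 23.1 on the mutant arrays and 16.7, 31.4 and 12.5 on the yw arrays. The groups overlapped fully, with a mean of 20.2 in each, and 3 of the 6 arrays were above background. The log2 difference was 0.01 (95% interval -0.60 to 0.61, adjusted p = 0.991, limma), so a modest change in either direction would not have been detectable.

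The neighbouring paralogs engrailed (en) and invected (inv), between which the gene table of assembly GCF_000001215.4 places no other protein-coding gene, encode homeobox factors of the posterior compartment. Signals of en were 12.1, 15.8 and 19.5 on the mutant arrays and 17.0, 39.6 and 13.2 on the yw arrays. Only yw replicate 2 was clearly above background, and the groups overlapped. The log2 difference of en was -0.25 (SE 0.264, adjusted p = 0.679, limma), and without yw replicate 2 it was 0.03, so its sign rests on that array. Signals of inv were 8.5, 4.7 and 13.2 on the mutant arrays and 15.4, 3.1 and 7.5 on the yw arrays. All of these were within background, so no fold is given (adjusted p = 0.967, limma). The probe sets of en and inv are of a type (suffix _s_at) that may match more than 1 transcript, and the counts of matching transcripts were not analysed here.

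Gooseberry (gsb) and gooseberry-neuro (gsb-n), again direct neighbours, encode Pax factors; gsb takes part in keeping wingless on in the epidermis, and gsb-n is mainly a gene of the nervous system. Signals of gsb were 26.9, 17.2 and 10.6 on the mutant arrays and 13.6, 31 and 4 on the yw arrays. Thus 2 of 6 arrays were above background, 1 in each group, and the groups overlapped (log2 difference 0.15, SE 0.323, adjusted p = 0.857, limma). Signals of gsb-n were 2.3, 6.6 and 3.4 on the mutant arrays and 6.1, 3.7 and 6.1 on the yw arrays, within background throughout (adjusted p = 0.710, limma).

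The yw arrays ordered several members alike. Of the 4 genes whose mean over the mutant arrays was above background (hh, ptc, smo and ci), yw replicate 2 was the highest of the yw arrays for all 4 and yw replicate 3 the lowest for 3, all but smo. Over the 8950 probe sets chosen in the same way, yw replicate 2 was the highest yw array for 34.3% and replicate 3 the lowest for 31.4%. The muscle and matrix sums had the same order on the yw arrays, and their part in the levels of these genes was not tested.

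**Figure D3:**
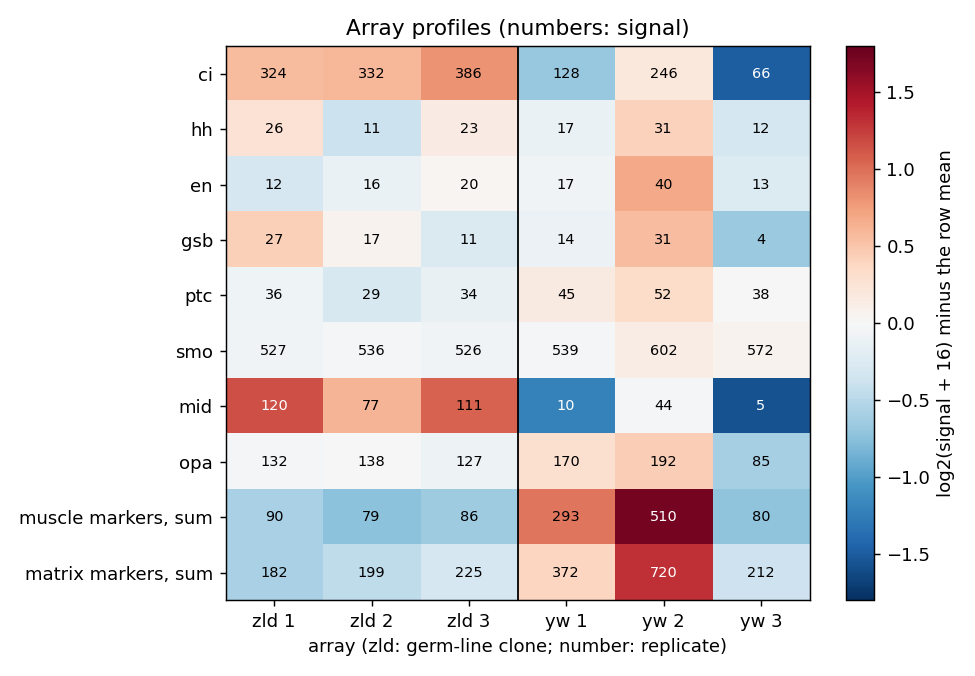
Profiles over the 6 arrays of the 6 segment polarity genes with a signal above background on at least 1 array, of mid and opa, and of the summed muscle and matrix markers. Numbers are signals, and colour is log2(signal + 16) minus the mean of the row; yw replicate 2 is the highest yw array in each row shown, and ci and mid are high on the mutant arrays where the muscle and matrix sums are low.

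For en and hh, the genes with the most similar profile were sought among 1000 bright, variable probe sets with 1 gene each, by Pearson correlation of log2(signal + 16) over the 6 arrays. Closest to en were Inx3, BobA and tna, with r of 0.983, 0.978 and 0.977, and closest to hh were hzg, mnb and kni, with r of 0.912, 0.902 and 0.889. Each of the 6 genes had its highest signal on yw replicate 2, as en and hh did; Inx3, for example, was at 329 there and at 108 to 158 on the other arrays. As en was above background on 2 of the 6 arrays, its r values mainly describe yw replicate 2. Those of hh, above background on 3 arrays, also reflect mutant replicate 2, the lowest mutant array for hh, hzg, mnb and kni.

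Pair-rule and related factors act upstream of the stripes of en and wg, and here some of them differed where the segment polarity genes did not pass. Of 6 measured genes of 7 listed, 3 fell and 0 rose, against a background of 0.778% and 0.863% of probe sets. These were eve, ftz and hry, encoding homeobox factors for the first pair and a repressor for the last. Even-skipped (eve) had signals of 74.1, 62.4 and 67.1 on the mutant arrays and 130, 165 and 125 on the yw arrays (log2 difference -0.89, adjusted p = 0.0234, limma). Its groups were well apart. Fushi tarazu (ftz) and hry fell by 0.98 and 1.36 on the log2 scale (adjusted p = 0.0253 and 0.0313, limma). The list was at a median of -0.59, and ftz-f1, the brightest of the list and a maternally supplied partner of Ftz, was at -0.14. All 6 genes had their highest signal on yw replicate 2; without that array 0 of the 6 were called, with eve, ftz and hry at -0.78, -0.91 and -1.15. Without yw replicates 1 and 2 also 0 were called, with the same genes at -0.75, -0.84 and -0.92. Their calls ended too when any 1 mutant array was left out, and those of ftz and hry without yw replicate 1. With each array left out singly, the log2 differences ran from -0.96 to -0.78 for eve, -1.05 to -0.90 for ftz and -1.59 to -1.15 for hry. Whether their differences differ from those of en or hh was not tested. The list was chosen with earlier results of these data known, so its share of calls is no independent test.

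Among 10 measured of 11 listed genes of other segmental patterns, 0 were called, with a median of 0.01. In limma, 2 had an unadjusted p under 0.05, mid and H15, near the 15.4% of all probe sets. They went in opposite directions, with H15 lower at -0.52 and its arrays overlapping. H15 was above background on 2 arrays, yw replicates 2 and 3. Midline (mid), a T-box gene with segmental stripes, was nearest to a call and had the same form as ci. Its signals were 120, 77.0 and 111 on the mutant arrays and 10.2, 43.8 and 4.60 on the yw arrays. The mutant arrays were all higher (log2 difference 1.88, SE 0.383, adjusted p = 0.0598, limma), and the yw level was above background on replicate 2 alone, so that the size depends on the pseudocount (2.85 with a pseudocount of 1 and 1.02 with 64). The difference of mid passed without yw replicate 2 (2.33, adjusted p = 0.00926), without yw replicates 1 and 2 (2.51, adjusted p = 0.0396) and under 4 further alternatives. Opa and Dfd were at -0.08 and -0.55, with overlapping arrays. Dfd was above background on yw replicate 2 alone, and without that array it was at -0.23. Opa, a zinc finger factor that acts with the pair-rule genes, had signals of 132, 138 and 127 on the mutant arrays and 170, 192 and 84.7 on the yw arrays.

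Machinery of the pathways was well expressed and close in level between the groups. Of 14 measured of 18 listed genes of Hedgehog transduction, 13 were above background on all arrays and 0 were called. In limma, 3 had an unadjusted p under 0.05. Over all probe sets 1.64% were called and 15.4% had such an unadjusted p. The median log2 difference of the list was -0.01 (lowest -0.22, highest 0.58). The largest difference was that of rasp, the acyltransferase that modifies Hedgehog, with 301, 264 and 277 on the mutant and 256, 129 and 183 on the yw arrays (log2 difference 0.58, adjusted p = 0.236, limma). Its mutant arrays were all higher, the lowest only slightly above the highest yw array, and the log2 difference was 0.81 without yw replicate 1 and 0.35 without yw replicate 2. The others named were hib, a substrate adaptor for degradation of Ci, at 0.30, Cul1, a ubiquitin ligase scaffold, at 0.28, and cos, the kinesin-like partner of Ci, at -0.01, of which 0 were called. Of 6 measured of 16 listed genes of Wnt transduction, all were above background on all arrays and 0 were called. At an unadjusted p under 0.05 (limma) 1 passed, near the 15.4% of all probe sets, and the median of the 6 was -0.13. Among them gro, a corepressor, was at 0.38 (0.19 without yw replicate 3), and Axn, the scaffold of the complex that degrades Armadillo, at -0.25. Evi, which carries Wnt ligands to the cell surface, and the kinase gene CkIalpha were at -0.10 and -0.16. Of 6 listed other Wnt ligands only Wnt6 was measured, with signals of 1.1 to 1.8 on all arrays, within background.

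**Figure D4:**
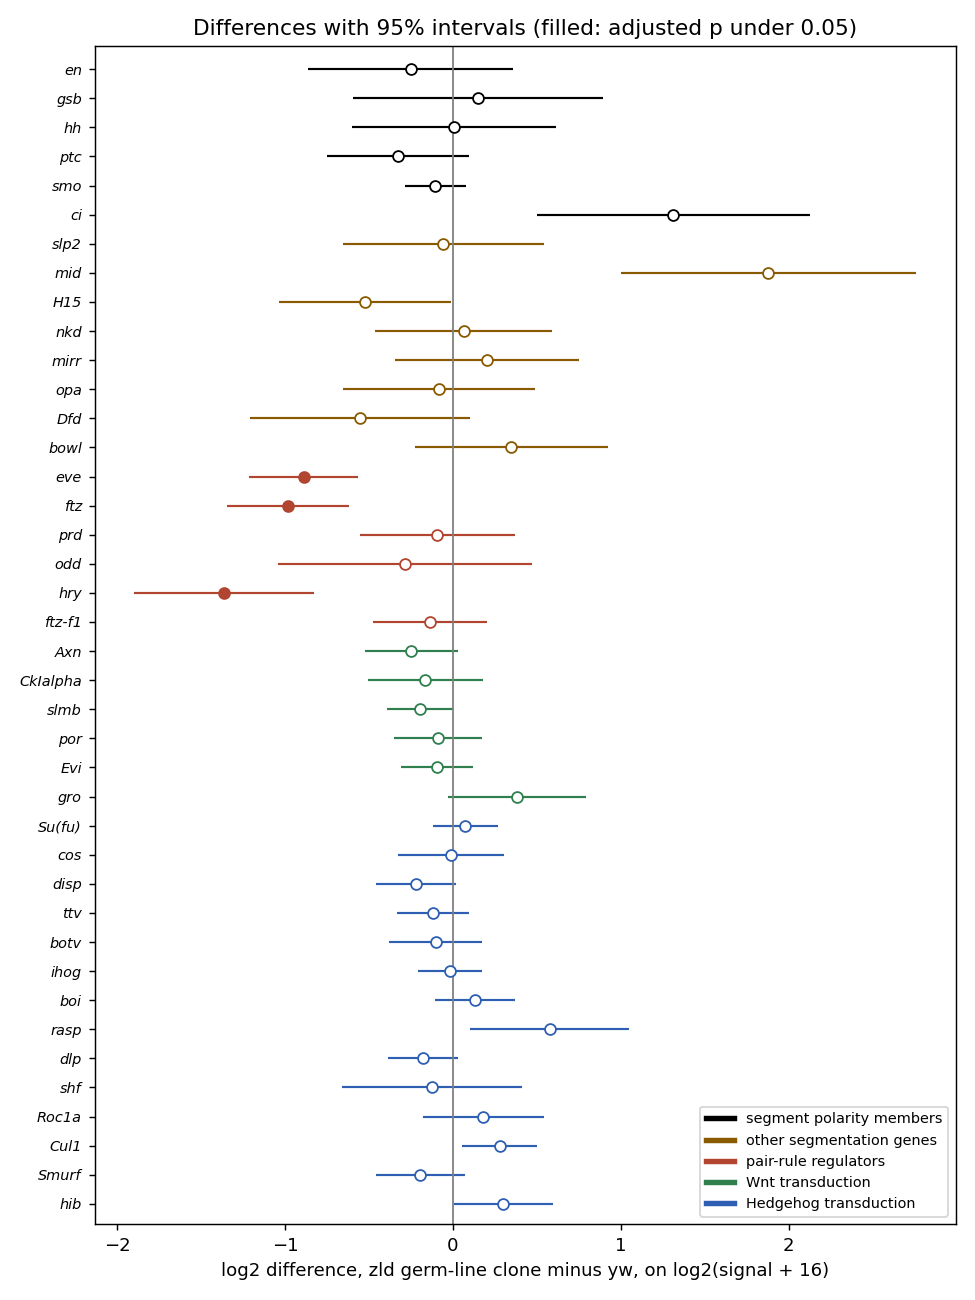
Log2 differences (mutant minus yw, on log2(signal + 16)) with unadjusted 95% intervals from limma, for the 6 segment polarity genes and all listed pathway genes that were above background on at least 1 array. Filled points (eve, ftz and hry) have an adjusted p under 0.05; ci at 1.31 and mid at 1.88 are the highest points, and smo and most of the transduction genes have narrow intervals around 0.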

How the data were processed

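Per the labels' protocols and the series text, total RNA was extracted with TRIzol, turned into biotin-labelled RNA and hybridized to Drosophila Genome 2 arrays, and scans were processed and normalized by the authors in the Affymetrix GCOS software (version: not given in the sources used here). What the authors deposited is 1 linear intensity per probe set and array; without the lowest and highest 2%, each of the 6 arrays had a mean of 150, so the authors' values carry a global scaling. The protocol field speaks of duplicate collections and the series text of 3 biological replicates; if arrays share a collection, p-values measure only the spread between these samples.

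Here 183 control probe sets were left out and 18769 were tested with limma 3.58.1 in R 4.3.3 (lmFit, eBayes with trend) on log2(signal + 16), group the only term, Benjamini-Hochberg adjustment over all, called at an adjusted p under 0.05. Fold changes on this scale understate those of dim genes. The test was checked on simulated arrays, with 200 changed probe sets taken from those above the median signal. It recovered 55% of 2-fold and 99% of 4-fold changes, and 1.91% of its calls were false. Changes in dimmer probe sets were not simulated. The simulated noise was independent between arrays and had the same SD in both groups. Arrays that deviate together, and unequal group spreads as for ci, were not simulated either, so these shares may not hold there. Gene names came from GEO's platform annotation, updated through gene identifiers to RefSeq assembly GCF_000001215.4; 13646 had 1 gene, 402 several and 4721 no name. The brightest probe set stood for a gene. The members, lists, tests and alternatives were chosen with earlier results of these data known. Beside all members, the named genes were called genes, the 2 with the largest difference and the 2 brightest of each list, and the 3 closest in profile to en and hh (mean signal above 50, SD above 0.3). H15 was named as well, for its unadjusted p. Alternatives were other pseudocounts (1 and 64), a filter on dim probe sets, quantile normalization, median centring, no trend, the methods' t-test, the replicate block, array weights, and arrays left out. The number of arrays limits the precision. Figures were made with Python 3.11.15 and matplotlib 3.10.9.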

Additional observations from a re-analysis of the deposited data

How the results depend on the processing

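For the 8 genes, the count called lower was 0 in all 16 alternatives, and the count called higher was 1 (ci) in 4 of them. One alternative tested only probe sets above the median mean signal (9383). The others were median centring, the fit without yw replicate 2 and that without yw replicates 1 and 2, which leaves 1 yw array. In the first, fewer probe sets were tested and the unadjusted p of ci was also lower (0.0030 against 0.0058, limma). The cause was not tested for any of them. Of all probe sets tested, 146 were called lower and 162 higher. These counts were 265 and 330 with probe sets above the median only, 0 and 2 with the methods' t-test (which passed 2491 before adjustment), 76 and 75 with the replicate block, 43 and 51 without yw replicates 1 and 2, and 45 to 213 and 35 to 227 when 1 array was left out. With median centring 552 were higher, 81.3% of the calls against 52.6%. Deviations from the group means correlated at 0.147, -0.00154 and -0.0349 between same-numbered arrays, the first being the highest of all pairs. Not every array correlated best with its own number. With so few arrays these values cannot show whether same-numbered samples were collected or processed together. The replicate block changed no call of the 8 genes (ci 1.31, adjusted p = 0.147, limma). However, eve, ftz and hry did not pass with the replicate block (adjusted p = 0.0824, 0.0925 and 0.0758, limma), nor with the methods' t-test. The call of hry also ended with a pseudocount of 64 and without trend (adjusted p = 0.0528 and 0.0626, limma). Signs turned for genes near 0: smo, Evi, ftz-f1, opa and cos were at 0.0535, 0.0615, 0.022, 0.0743 and 0.147 with median centring; opa and cos were at 0.017 and 0.0174 with array weights; en, opa and cos were at 0.12, 0.56 and 0.19 without yw replicates 1 and 2. With 1 array left out, the log2 differences ran from -0.44 to 0.0283 for en, -0.15 to 0.22 for hh, -0.15 to 0.47 for gsb, -0.40 to 0.12 for opa, -0.27 to 0.0009 for CkIalpha and -0.12 to 0.10 for cos. Those of ci and ptc kept their sign in all 16, at 0.90 to 2.14 and -0.45 to -0.16. Averaging the probe sets of a gene was not run, since each measured member had 1. For en, inv, hh, gsb and gsb-n, signals at or near background limit what can be seen.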

Other observations

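The spread of ci among the yw samples was itself unusual. The SD of its log2(signal + 16) was 0.84 over the 3 yw arrays and 0.13 over the 3 mutant arrays. Of 6764 probe sets with a mean signal above 50, only 30 had a yw SD at least as large, 0.444% of them, and the median yw SD was 0.147. For mid, chosen here after its values were seen, the SD was 0.81 over the yw arrays and 0.29 over the mutant arrays, and 37 of these probe sets had a yw SD at least as large. The log2 difference of ci ranked 54th from the top of all 18769 probe sets, while 852 probe sets had a smaller unadjusted p (limma). Both genes had the same order on the yw arrays, with replicate 2 highest and replicate 3 lowest. The cause of this order was not tested.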
